A study of Mus musculus with 12 samples.

Results

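The genes described here are 9 genes of growth factor signalling known for their part in the activation of muscle stem cells. Of these, 5 encode ligands (Hgf, Fgf2, Igf1, Igf2 and Hbegf) and 4 encode receptors (Met, Fgfr1, Igf1r and Egfr). They were chosen by name, with earlier results of these data known. All 9 were found by gene symbol among the 55385 genes listed in both of the 2 count tables. RNA-seq had been done on satellite cells, which are muscle stem cells, from the hindlimbs of C57BL/6J mice. The cells were frozen straight after isolation, and cDNA was made by Smart-Seq2, which amplifies full-length cDNA from small amounts of RNA. The 4 groups were female KO, female Hetz, male KO and male Hetz, with 3 libraries each. KO libraries carry the genotype Keap1 knockout, and the genotype of Hetz libraries is written as Keap1 heterogeneous. The Keap1 allele, any Cre driver, the age of the mice and the gates of any cell sort are not given in the sources used here. Each library is called here by its label, such as KO166, whose number is read as that of the mouse, and p-values measure the spread between these numbered libraries. The comparison addresses how loss of Keap1 alters freshly isolated satellite cells in females and in males.

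A satellite cell rests beside the muscle fibre until injury, and then enters the cell cycle. Hepatocyte growth factor (HGF) is stored in the muscle matrix as an inactive precursor, is cleaved by serine proteases and binds the receptor tyrosine kinase MET. Fibroblast growth factors bind FGFR1 with heparan sulphate, and insulin-like growth factors bind IGF1R. HBEGF is made as a membrane protein, is released by shedding and binds EGFR. These receptors pass their signal on through RAS and MAP kinases and through PI3 kinase and AKT, and Sprouty proteins and dual-specificity phosphatases damp it. KEAP1 marks the transcription factor NRF2 for degradation, and NRF2 binds antioxidant response elements in the promoters of its targets.

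Libraries held between 13042039 and 19273245 counts, and between 19833 and 22602 genes had at least 1 count. Values are given as counts per 1000000 counts of the library (CPM), scaled by the trimmed mean of M-values over all 12 libraries. A count of 3 in 1 library corresponded to between 0.144 and 0.237 CPM. The transcript total of Keap1 was 11.9 ± 0.923 CPM in female KO and 8.18 ± 1.21 CPM in female Hetz libraries (SD, n = 3 each). It was 7.30 ± 0.797 CPM in male KO and 7.80 ± 2.36 CPM in male Hetz libraries. Neither difference passed edgeR's quasi-likelihood test (adjusted p = 0.186 in females and 0.936 in males), and a sum over all exons does not show whether one of them was deleted. Nqo1, a known NRF2 target, was 20.8-fold higher in female KO than in female Hetz libraries and 9.63-fold higher in male KO than in male Hetz libraries. The satellite cell markers were present in every group: Myf5 averaged over 1000 CPM in each, and Pax7 averaged 12.5 CPM in female KO, 12.9 CPM in female Hetz, 16.2 CPM in male KO and 22.2 CPM in male Hetz libraries. The summed level of 8 satellite cell markers was 7627 to 9822 CPM in female KO, against 11050 to 12720 CPM in female Hetz libraries, with no overlap. Most of that gap lay in Sdc4, with a mean of 4855 CPM in female KO and 7230 CPM in female Hetz libraries (edgeR adjusted p = 0.122). The means of Vcam1 (1440 CPM in female KO and 2021 CPM in female Hetz) and Myf5 (1034 and 1389 CPM) were also lower in KO. So were those of Calcr (86.1 and 127.3 CPM), Chodl (364.9 and 457.6 CPM) and Pax7. The means of Cdh15 (177.0 CPM in female KO and 123.7 CPM in female Hetz) and Itga7 (521.3 CPM in female KO and 462.8 CPM in female Hetz) were higher in KO. The median log2 fold change of the 8 markers was -0.378 in females, beside 0.004 over all genes tested. In females edgeR called 0 of the 8 markers, with 3 at an unadjusted p under 0.05, against 17.9% of all genes. DESeq2 called 2 lower in KO (Sdc4 and Calcr), where it called 376 of 12672 genes lower, and limma voom called 0. In males the sum was 16570 to 17750 CPM in KO and 14520 to 16650 CPM in Hetz libraries.

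Hgf had the largest fold difference of the 5 ligands in females, where it was 2.41-fold lower in KO than in Hetz libraries. Hgf encodes the ligand of MET and lies on chr5:16553495-16620152 on the plus strand (GRCm38). In females its level was 1.87, 1.13 and 1.41 CPM in KO166, KO178 and KO188, against 4.16, 3.24 and 3.28 CPM in Hetz164, Hetz165 and Hetz181. All 3 KO values lay below all 3 Hetz values. In males its level was 2.27, 2.95 and 1.86 CPM in KO240, KO247 and KO255, against 3.96, 2.25 and 4.60 CPM in Hetz204, Hetz245 and Hetz249. The male groups overlapped, since Hetz245 lay below KO240 and KO247. These levels rest on 19 to 39 counts per library in female KO, 62 to 78 in female Hetz, 28 to 39 in male KO and 40 to 81 in male Hetz libraries. The female log2 fold change of Hgf was -1.27 ± 0.309 (SE; 95% interval -1.94 to -0.60; edgeR adjusted p = 0.0549). The male one was -0.61 with an adjusted p of 0.519 in edgeR. With the sexes averaged in a fit of all 12 libraries, Hgf fell by 0.94 on the log2 scale (SE 0.229; edgeR adjusted p = 0.0292). The female change minus the male change was -0.66 (95% interval -1.62 to 0.31; edgeR adjusted p = 0.599). The averaged call was lost when any 1 of 7 libraries was left out: female Hetz164 (adjusted p = 0.0801 in edgeR), female KO178 (0.0787) or KO188 (0.0777), male Hetz204 (0.0735) or Hetz249 (0.101), and male KO240 (0.0725) or KO255 (0.0652). The female value passed without female Hetz165 (edgeR adjusted p = 0.0329) and with DESeq2 (adjusted p = 0.0156).

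The promoter windows of Hgf and of its receptor gene Met are shown because each holds the letters of the antioxidant response element core, TGACNNNGC, the element that NRF2 binds. Windows run from 250 bases before to 50 bases after an annotated start and come from RefSeq (GRCm38.p6). Hgf has 2 such windows. The first is chr5:16553245-16553544 on the plus strand, and the core, in capitals, starts at base 33 of the transcript. The second, chr5:16553651-16553950 on the plus strand, holds no match. The Met window is chr6:17463707-17464006 on the plus strand. Its core starts 56 bases before the transcript start, on the minus strand, and it contains an AP-1 site (TGANTCA) starting at base -54; the capitals mark the whole of both.
Hgf: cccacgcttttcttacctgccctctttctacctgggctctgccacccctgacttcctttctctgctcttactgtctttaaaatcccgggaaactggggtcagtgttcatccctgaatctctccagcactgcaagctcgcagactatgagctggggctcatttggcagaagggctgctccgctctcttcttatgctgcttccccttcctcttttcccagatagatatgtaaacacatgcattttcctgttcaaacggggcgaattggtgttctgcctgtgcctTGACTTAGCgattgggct
Met: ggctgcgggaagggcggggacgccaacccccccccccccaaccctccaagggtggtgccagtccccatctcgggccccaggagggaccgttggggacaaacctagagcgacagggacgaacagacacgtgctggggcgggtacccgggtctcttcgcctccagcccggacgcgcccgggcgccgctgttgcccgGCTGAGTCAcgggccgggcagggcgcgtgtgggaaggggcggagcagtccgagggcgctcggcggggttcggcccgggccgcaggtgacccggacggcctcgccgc
The core occurs on either strand in 12.4% of 32851 such mouse windows, the AP-1 letters in 7.81%, and the letters CAGCTG, an E-box bound by myogenic factors, in 16.3%. Windows of 7 of the 9 genes were searched, 11 windows in all; those of Fgfr1 and Hbegf were not analysed here. The core was also found in the Fgf2 window at bases -144 and -6 and in 1 of the 4 Igf2 windows, and the Igf1 window held an AP-1 site and an E-box. The windows of Igf1r and Egfr held none of the motifs. A match of letters describes the window and does not show that a factor binds there.

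Hbegf, which encodes a shed ligand of EGFR, was lower in every female KO library than in every female Hetz library. It lies on chr18:36504927-36515805 on the minus strand (GRCm38). Its level was 128.8, 162.9 and 140.7 CPM in female KO166, KO178 and KO188, against 185.8, 210.2 and 219.0 CPM in female Hetz164, Hetz165 and Hetz181. In males it was 169.8, 149.8 and 233.5 CPM in KO240, KO247 and KO255, against 188.3, 225.6 and 184.4 CPM in Hetz204, Hetz245 and Hetz249. The male groups overlapped, and the highest male value was that of KO255. In females the log2 fold change was -0.51 ± 0.142 (SE; 95% interval -0.82 to -0.21), which missed the threshold in edgeR (adjusted p = 0.087) and passed it in DESeq2 (adjusted p = 0.021). It also passed in edgeR without female Hetz165 (adjusted p = 0.0475). In males the log2 fold change was -0.11 (95% interval -0.47 to 0.25; edgeR adjusted p = 0.856).

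The female groups also differed in markers of leukocytes and macrophages. The summed level of 8 such markers was 32.1 to 51.2 CPM in female KO, against 81.2 to 113 CPM in female Hetz libraries. Most of the sum and of its gap came from Cd74 (mean 22.7 CPM in female KO and 61.5 CPM in female Hetz) and Lyz2 (10.1 and 23.3 CPM). Csf1r alone had a higher mean in KO, at 0.957 CPM against 0.791 CPM in female Hetz libraries. Adgre1, Itgam and C1qa had at most 21 counts in any female library. Of the 7 tested, edgeR called 2, Lyz2 and Cd74, lower in KO, where 0.983% of all genes were called lower. Ptprc, the common leukocyte marker, averaged 1.23 CPM in female KO and 2.24 CPM in female Hetz libraries. In males the same sum was 50.9 to 67.6 CPM in KO and 27.3 to 84.1 CPM in Hetz libraries. No marker of the list was at 0 in all 3 libraries of a group. The part of these cells, and of the satellite cell marker sum that Sdc4 dominates, in the female values of Hgf, Hbegf and the other genes described here was not tested. In bulk RNA, fewer cells of a type and less RNA per cell cannot be told apart.

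**Figure D1:**
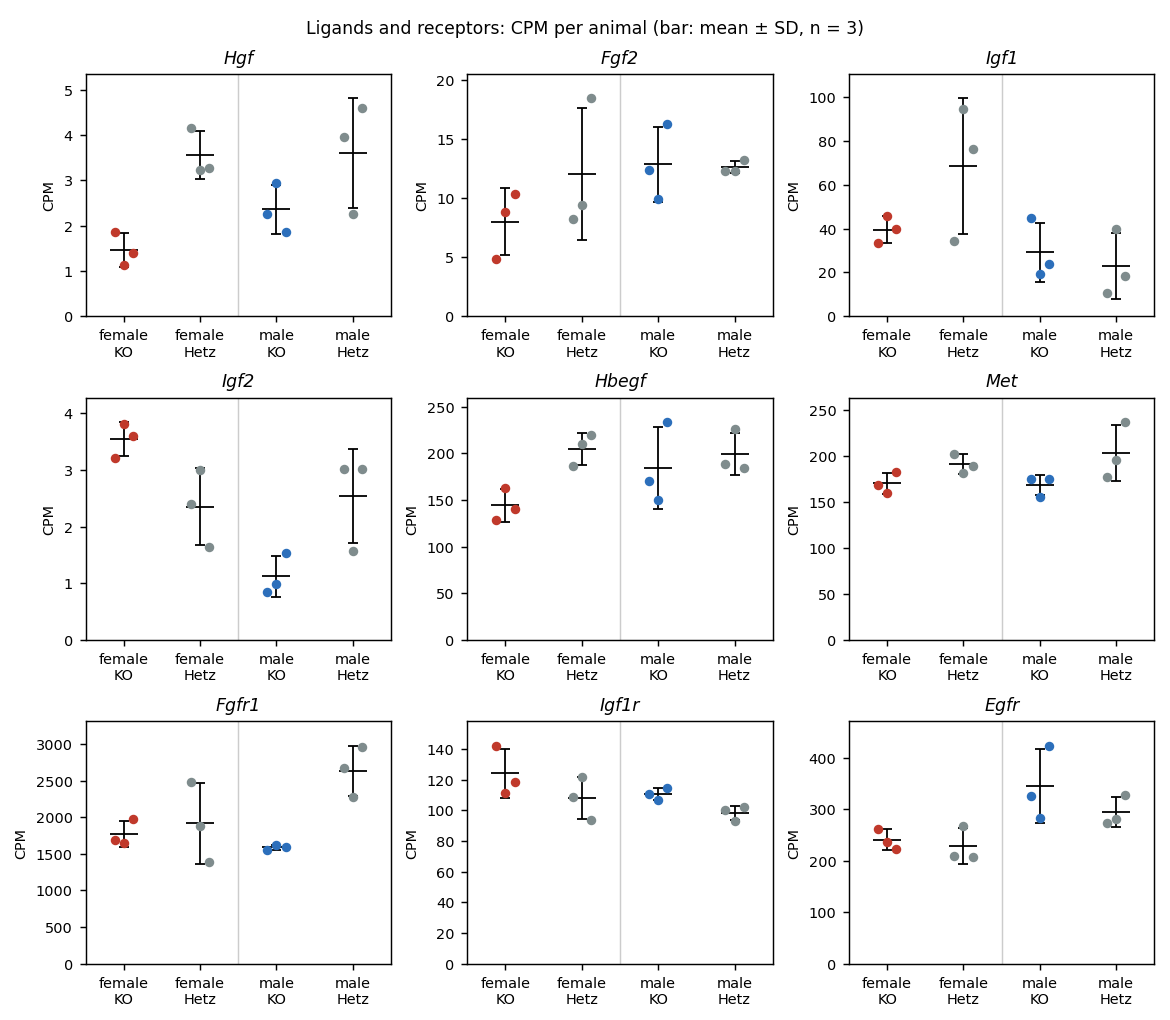
Each point is 1 library (numbered mouse), in CPM (linear axes from 0), for the 5 ligand genes followed by the 4 receptor genes, and bars give the mean ± SD of 3 libraries. Hgf and Hbegf separate the female KO from the female Hetz libraries. Fgfr1, Met and Igf1r separate the male KO from the male Hetz libraries, Met and Igf1r by small margins. Igf2 separates KO from Hetz libraries in opposite directions in females and males.

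Igf1, Igf2 and Fgf2 varied more between libraries than the receptor genes did. Igf1, an insulin-like growth factor that binds IGF1R and promotes muscle growth, lies on chr10:87858265-87937042 on the plus strand. It had 33.2, 45.8 and 39.7 CPM in female KO166, KO178 and KO188, against 34.2, 94.8 and 76.3 CPM in female Hetz164, Hetz165 and Hetz181. The female groups overlapped through Hetz164. In males it had 44.6, 19.2 and 23.7 CPM in KO240, KO247 and KO255, against 10.8, 39.8 and 18.5 CPM in Hetz204, Hetz245 and Hetz249. The male groups overlapped, and the largest value over the 12 libraries was 8.74 times the smallest. The female log2 fold change of Igf1 was -0.80 (95% interval -1.50 to -0.10; edgeR adjusted p = 0.228) and the male one was 0.34 (95% interval -0.96 to 1.63; edgeR adjusted p = 0.865). Without female Hetz164 the female value passed the test (edgeR adjusted p = 0.0138). In males, the 2 libraries with the most Igf1, KO240 and Hetz245, were also the 2 with the highest summed level of 8 markers of fibro-adipogenic progenitors, connective tissue cells of muscle: 1630 and 2091 CPM, against 1120 and 1279 CPM in the other KO and 926.8 and 1156 CPM in the other Hetz libraries. The females did not share that order: the sum was 2459, 2944 and 2546 CPM in KO166, KO178 and KO188, against 2442, 3683 and 2067 CPM in Hetz164, Hetz165 and Hetz181. Hetz165, with the most Igf1, had the highest sum, and Hetz181, next in Igf1, had the lowest female sum. Most of the sum came from 1 gene, the collagen gene Col3a1. It averaged 2139 CPM in female KO, 2114 CPM in female Hetz, 849.7 CPM in male KO and 905.3 CPM in male Hetz libraries. Pdgfra, which defines fibro-adipogenic progenitors, averaged 3.45 CPM in female KO, 3.10 CPM in female Hetz, 2.46 CPM in male KO and 2.27 CPM in male Hetz libraries. The part of such cells in Igf1 was not tested.

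Igf2, an imprinted fetal growth factor that also binds IGF1R, had its KO values on opposite sides of its Hetz values in females and males. It lies on chr7:142650766-142666816 on the minus strand. It had 3.21, 3.81 and 3.60 CPM in female KO166, KO178 and KO188, against 2.40, 2.999 and 1.64 CPM in female Hetz164, Hetz165 and Hetz181. In males it had 0.851, 0.982 and 1.53 CPM in KO240, KO247 and KO255, against 3.01, 1.58 and 3.01 CPM in Hetz204, Hetz245 and Hetz249. The KO values lay above all Hetz values in females and below all Hetz values in males. The log2 fold change was 0.58 in females (95% interval -0.07 to 1.23; edgeR adjusted p = 0.331) and -1.15 in males (95% interval -2.03 to -0.28; edgeR adjusted p = 0.264). The female change minus the male change was 1.74 ± 0.488 (SE; 95% interval 0.71 to 2.77), with an unadjusted p of 0.0023 and an adjusted p of 0.175 in edgeR. Of its exonic bases, 64.5% overlap the gene models Gm49394 and Igf2os, and fragments over 2 genes were not counted, so that its level is uncertain.

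Fgf2, a ligand of FGFR1 that drives the division of satellite cells in culture, lies on chr3:37348346-37410108 on the plus strand. It had 4.89, 8.87 and 10.3 CPM in female KO166, KO178 and KO188, against 8.27, 9.43 and 18.5 CPM in female Hetz164, Hetz165 and Hetz181. Its male level was 12.4, 9.97 and 16.3 CPM in KO240, KO247 and KO255, against 12.4, 12.3 and 13.2 CPM in Hetz204, Hetz245 and Hetz249. The groups overlapped in both sexes. The log2 fold change was -0.59 in females (95% interval -1.34 to 0.15; edgeR adjusted p = 0.39) and 0.04 in males (95% interval -0.41 to 0.48; edgeR adjusted p = 0.971). Its exons overlap those of Nudt6 and Gm43439 over 13.2% of their bases, so that its level is uncertain as well.

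Among the receptors, Fgfr1 fell in male KO cells. Fgfr1 encodes the main fibroblast growth factor receptor of satellite cells and lies on chr8:25513654-25575718 on the plus strand. In males its level was 1550, 1617 and 1592 CPM in KO240, KO247 and KO255, against 2673, 2270 and 2954 CPM in Hetz204, Hetz245 and Hetz249. The 3 male KO libraries lay within a narrow band under every other male library. In females it was 1690, 1651 and 1974 CPM in KO166, KO178 and KO188, against 2480, 1878 and 1386 CPM in Hetz164, Hetz165 and Hetz181. The female groups overlapped, and the female Hetz values enclosed all 3 female KO values. The male level of Fgfr1 was 1586 ± 34.1 CPM in KO and 2632 ± 344 CPM in Hetz libraries (SD, n = 3 each), 1.66-fold lower in KO (log2 fold change -0.73 ± 0.139 SE; 95% interval -1.03 to -0.43; edgeR adjusted p = 0.0287). The female level was 1772 ± 176 CPM in KO and 1915 ± 548 CPM in Hetz libraries (log2 fold change -0.12; 95% interval -0.54 to 0.31; edgeR adjusted p = 0.799). The female change minus the male change was 0.62 (95% interval 0.09 to 1.15), with an unadjusted p of 0.0237 and an adjusted p of 0.333 in edgeR, so that the sexes were not shown to differ. The male call was lost in edgeR without male Hetz204 (adjusted p = 0.154), without male Hetz249 (0.183), without male KO240 (0.234), and in the fit of all 12 libraries (0.0744).

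Met, the receptor of HGF, is used to mark quiescent and activated satellite cells alike and lies on chr6:17463800-17573980 on the plus strand. It had 168.4, 160.2 and 183.2 CPM in female KO166, KO178 and KO188, against 202.8, 181.3 and 189.7 CPM in female Hetz164, Hetz165 and Hetz181. The male libraries had 175.4, 156.1 and 175.1 CPM in KO240, KO247 and KO255, against 177.2, 195.8 and 237.4 CPM in Hetz204, Hetz245 and Hetz249. The male groups did not overlap, though KO240 and Hetz204 lay close together, and the female groups overlapped through KO188. The log2 fold change was -0.17 in females (95% interval -0.45 to 0.11; edgeR adjusted p = 0.526) and -0.27 in males (95% interval -0.56 to 0.03; edgeR adjusted p = 0.468). Averaged over the sexes it was -0.22 (95% interval -0.41 to -0.03), with an unadjusted p of 0.0293 and an adjusted p of 0.231 in edgeR.

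Igf1r, the receptor of both insulin-like growth factors, lies on chr7:67952827-68233668 on the plus strand. It had 142.3, 111.6 and 118.7 CPM in female KO166, KO178 and KO188, against 108.9, 121.6 and 93.8 CPM in female Hetz164, Hetz165 and Hetz181. Male libraries had 110.7, 106.8 and 114.6 CPM in KO240, KO247 and KO255, against 100.3, 93.3 and 102.1 CPM in Hetz204, Hetz245 and Hetz249. The male KO values lay above all male Hetz values by a small margin, and the female groups overlapped. The log2 fold change was 0.20 in females (95% interval -0.13 to 0.52; edgeR adjusted p = 0.522) and 0.17 in males (95% interval -0.09 to 0.43; edgeR adjusted p = 0.628).

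Egfr, the receptor of HBEGF and of several related ligands, lies on chr11:16752203-16918158 on the plus strand. It had 262.4, 236.7 and 223.3 CPM in female KO166, KO178 and KO188, against 209.2, 268.0 and 208.0 CPM in female Hetz164, Hetz165 and Hetz181. Levels in males were 326.1, 283.7 and 423.3 CPM in KO240, KO247 and KO255, against 273.2, 281.7 and 328.2 CPM in Hetz204, Hetz245 and Hetz249. KO and Hetz libraries overlapped in both sexes, and every male library lay above every female library. The log2 fold change of KO over Hetz was 0.07 in females (95% interval -0.25 to 0.40; edgeR adjusted p = 0.837) and 0.23 in males (95% interval -0.11 to 0.57; edgeR adjusted p = 0.624).

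Taking the 9 genes as a group, 0 were called in females by edgeR at an adjusted p under 0.05, where 2.27% of the 14036 genes tested were called. Of the 9, 3 (Hgf, Hbegf and Igf1) had an unadjusted p under 0.05, against 17.9% of all genes. DESeq2 called 2 (Hgf and Hbegf), where it called 723 of 12672 genes, and limma voom called 0, where it called 292 of 14036. In males edgeR called 1 of 9, Fgfr1, lower in KO, where 0.861% of 13361 genes were called, 0.704% higher and 0.157% lower. With the sexes averaged it called 1 of 9, Hgf, lower in KO, where 3.41% of 14772 genes were called, 2.15% higher and 1.27% lower. At an unadjusted p under 0.05 there were 4 (Hgf, Fgfr1, Hbegf and Met), against 17.0% of all genes. KO and Hetz values did not overlap for 3 of the 9 in females, where this held for 22.3% of all genes tested (12.1% with KO higher and 10.1% with KO lower): Hgf and Hbegf were lower in KO and Igf2 was higher. In males they did not overlap for 4 of the 9, where this held for 17.2% of all genes (9.37% with KO higher and 7.8% with KO lower): Fgfr1, Igf2 and Met were lower in KO and Igf1r was higher. The median log2 fold change of the 9 genes was -0.17 in females and -0.11 in males, beside 0.00 and 0.01 over all genes tested. None of the 9 was shown to respond differently in the sexes by edgeR (0 of 9 called, where 0.00677% of 14772 genes were called). At an unadjusted p under 0.05 there were 2, Igf2 and Fgfr1, where 12.4% of all genes had one. DESeq2 and limma voom each called 0, where they called 238 of 7612 and 1 of 14772 genes.

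**Figure D2:**
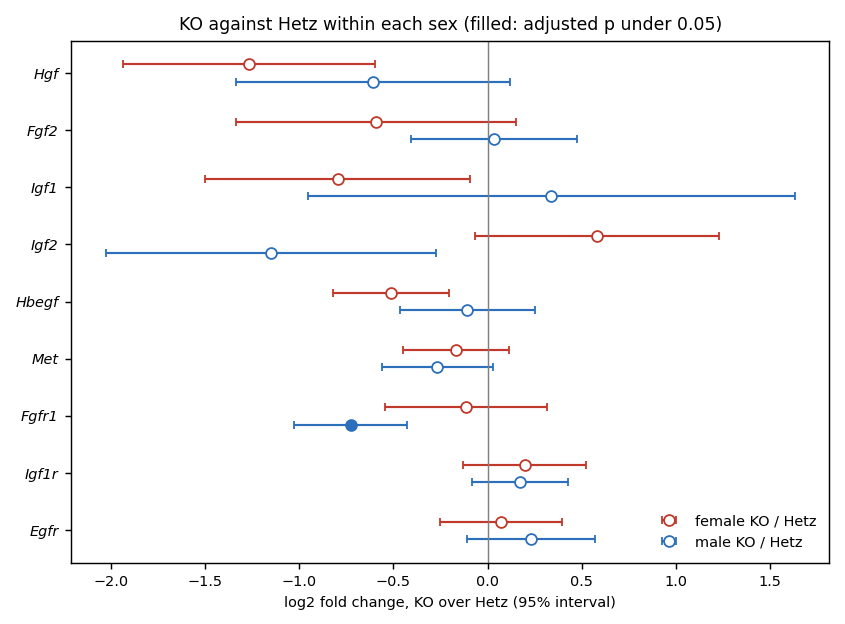
The log2 fold change of KO over Hetz is plotted for each gene with its 95% interval, in females (red, upper) and males (blue, lower), and filled points have an edgeR adjusted p under 0.05. Fgfr1 in males is the one filled point, at -0.73, and the female interval of Hgf runs from -1.94 to -0.60.

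Females were also compared with males, averaged over the genotypes. The tables of females and males were counted separately, so that sex and table cannot be told apart. Cell type marker sums differed between the sexes as well. The mean fibro-adipogenic sum was 2650 CPM in female KO, 2731 in female Hetz, 1343 in male KO and 1391 CPM in male Hetz libraries. The mean satellite cell sum was 8490, 11820, 17340 and 15790 CPM in the same order of groups. The part of such cells in the values that follow was not tested. In edgeR 2 of the 9 genes were called, where 27.8% of 14772 genes were called, 13.2% higher and 14.6% lower in females. Egfr was lower in females by 0.44 on the log2 scale (95% interval -0.67 to -0.21; edgeR adjusted p = 0.00653), with 240.8 ± 19.9 CPM in female KO, 228.4 ± 34.3 CPM in female Hetz, 344.4 ± 71.6 CPM in male KO and 294.4 ± 29.6 CPM in male Hetz libraries (SD, n = 3 each). The Egfr call held in all 17 alternatives (edgeR, DESeq2 and limma voom adjusted p of 0.000769 to 0.0275). Igf2 was higher in females by 0.77 on the log2 scale (95% interval 0.26 to 1.29; edgeR adjusted p = 0.0254). For Igf2 the mean of female KO libraries, 3.54 CPM, was the highest of the 4 groups and that of male KO libraries, 1.12 CPM, the lowest, while the female and male Hetz libraries overlapped at 2.35 and 2.53 CPM. The Igf2 call was lost in edgeR without female Hetz165 (adjusted p = 0.065), female KO178 (0.0533), male Hetz245 (0.0614), male KO240 (0.064) or male KO247 (0.0512). Igf1 was 1.999-fold higher in females by the fitted value and missed the threshold (edgeR adjusted p = 0.0679); it passed with DESeq2 (adjusted p = 0.0333) and limma voom (0.0125).

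Per kilobase of exons, Met stood above Hgf, Fgfr1 above Fgf2 and Igf1r above Igf2 in all 12 libraries, and Egfr stood below Hbegf in all 12. Igf1r stood above Igf1 in 10 of the 12; in female Hetz165 Igf1r had 7.24 and Igf1 9.57 CPM per kb, and in female Hetz181 Igf1r had 5.59 and Igf1 7.71 CPM per kb. Over the 12 libraries Fgfr1 averaged 200.1 CPM per kb, above 99.2% of the 31671 genes with a count. Hbegf averaged 37.9, Egfr 24.5 and Met 23.9 CPM per kb, above 95.8%, 94.0% and 93.8% of those genes. Igf1r averaged 6.57, Igf1 4.04 and Fgf2 1.68 CPM per kb. Igf2 and Hgf were the lowest, at 0.417 and 0.382 CPM per kb, above 58.8% and 57.9% of genes. The ratio of the highest to the lowest of the 12 libraries was 8.74 for Igf1, 4.48 for Igf2, 4.07 for Hgf and 3.78 for Fgf2, and lay between 1.52 and 2.13 for Met, Igf1r, Hbegf, Egfr and Fgfr1. The order of the 4 group means of Hgf was female KO, male KO, female Hetz and male Hetz, from low to high, and neighbours overlapped except male KO and female Hetz. For Fgfr1 the order was male KO, female KO, female Hetz and male Hetz, and neighbours overlapped except male KO and female KO. For Fgf2 and Igf1 even the lowest and the highest group overlapped.

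**Figure D3:**
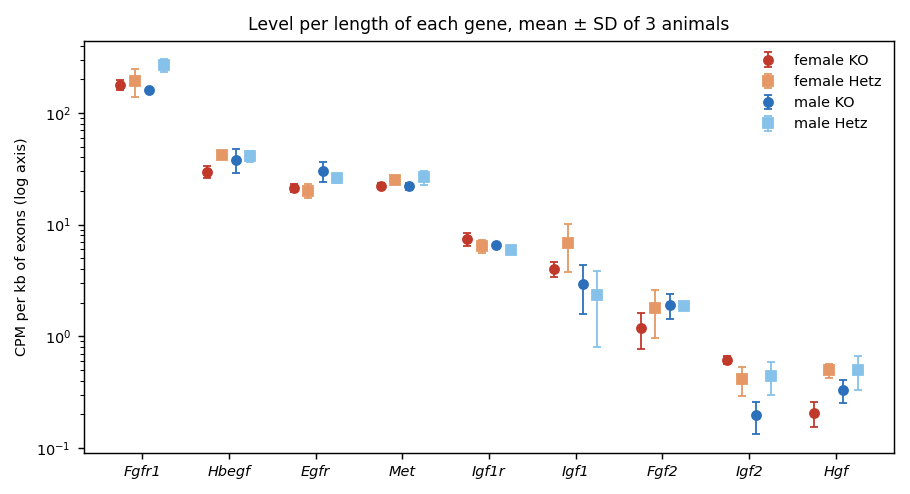
Mean level in CPM per kb of exons (log axis) ± SD of 3 libraries is plotted for each gene and group, with genes ordered by their mean over the 12 libraries. Fgfr1 is at the top with a mean of 200.1, and Igf2 and Hgf are at the bottom with means of 0.417 and 0.382.

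The genes whose levels ran most like those of the called genes were found by the Pearson correlation of log2 CPM over the 12 libraries, after the mean of each sex was taken out, among 11132 genes. These values are a description, since the libraries share their genotype groups and every gene was searched. For Hgf they were Gpx3 (r = 0.936), Zfp397 (r = 0.927) and Xbp1 (r = 0.925). For Fgfr1 they were Taf1c (r = 0.961), Nr2c2ap (r = 0.956) and Rnf40 (r = 0.94). For Igf2 they were C2cd2l (r = 0.945), Nptxr (r = 0.937) and Akt2 (r = 0.926), and for Egfr they were Bcl2 (r = 0.972), Ralgds (r = 0.961) and Ccdc93 (r = 0.936). Spearman's rho for these pairs lay between 0.853 and 0.965.

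Of the other genes around these ligands and receptors, those of the EGF family had the most calls. The gene lists were chosen with earlier results of these data known, so that their counts are a description. The list held 14 tested genes for other EGF family ligands, for their receptors and for sheddases, and edgeR called 4 in female KO cells and 2 in male KO cells, all of them higher. Over all genes, 1.29% were called higher and 0.983% lower in female KO cells, and 0.704% higher in male KO cells. DESeq2 called 6 of the 14 in females and 4 in males, again all higher. Over all genes it called 347 of 12672 higher in females and 201 of 12323 higher in males. With no filter on low counts edgeR called 6 and 5 of 18. Over all genes that fit called 509 of 29014 higher in females and 248 of 28225 higher in males. The 4 were ligands: betacellulin (Btc) and epiregulin (Ereg), which bind EGFR and ERBB4, amphiregulin (Areg), which binds EGFR, and neuregulin 1 (Nrg1), which binds ERBB3 and ERBB4. The median log2 fold change of the list was 0.49 in females and 0.20 in males, beside 0.00 and 0.01 over all genes.

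Btc had 17.7, 12.1 and 22.6 CPM in female KO166, KO178 and KO188, against 2.35, 3.39 and 2.75 CPM in female Hetz164, Hetz165 and Hetz181. In males it had 5.82, 5.37 and 6.05 CPM in KO240, KO247 and KO255, against 1.82, 1.29 and 1.14 CPM in Hetz204, Hetz245 and Hetz249. KO and Hetz libraries stood apart in both sexes. Btc was 6.13-fold higher in KO in females (edgeR adjusted p = 0.000112) and 4.10-fold higher in males (edgeR adjusted p = 0.00337), and both calls held in all 12 alternatives of each sex. Ereg had 60.5 ± 3.29 CPM in female KO and 21.8 ± 5.33 CPM in female Hetz libraries, and 23.6 ± 1.19 CPM in male KO and 11.7 ± 1.99 CPM in male Hetz libraries (SD, n = 3 each). It was 2.77-fold higher in KO in females (edgeR adjusted p = 0.000762) and 2.01-fold higher in males (edgeR adjusted p = 0.0162). The male call of Ereg was lost without male Hetz204, male Hetz245 or male KO240 (largest edgeR adjusted p = 0.131). Nrg1 was 3.43-fold higher in female KO than in female Hetz libraries (edgeR adjusted p = 0.00871; lost without female Hetz164, at 0.0551, or female KO166, at 0.0652), and Areg was 2.25-fold higher (edgeR adjusted p = 0.0254; lost without female Hetz181, female KO178 or female KO188, with a largest value of 0.142). In males Nrg1 had a log2 fold change of 1.68 (edgeR adjusted p = 0.128) and Areg one of 1.10 (edgeR adjusted p = 0.083). The female change minus the male change was 0.59 for Btc and 0.47 for Ereg on the log2 scale, and neither passed (edgeR adjusted p = 0.567 and 0.468).

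The genes that activate HGF showed 1 higher and 1 lower call among 7 tested in females, where 1.29% of all genes were called higher and 0.983% lower. Plat, tissue plasminogen activator, fell in female KO cells, with 151.8 ± 1.53 CPM in KO and 316.1 ± 107.6 CPM in Hetz libraries (SD, n = 3 each; log2 fold change -1.06; edgeR adjusted p = 0.0155). The call for Plat was lost when any 1 of the 3 female KO libraries was left out (largest edgeR adjusted p = 0.0779). Hpn, the serine protease hepsin, rose in female KO cells and was at a low level in all groups, with 1.61 ± 0.359 CPM in female KO and 0.388 ± 0.184 CPM in female Hetz libraries (log2 fold change 2.02; edgeR adjusted p = 0.0418). The Hpn call was lost without female Hetz164 or Hetz181 or any female KO library (largest edgeR adjusted p = 0.213). Male Hpn had 1.29 ± 0.211 CPM in KO and 0.610 ± 0.240 CPM in Hetz libraries, with no overlap (log2 fold change 1.11, edgeR adjusted p = 0.36). For Plat the male log2 fold change was -0.32 (edgeR adjusted p = 0.403), and male KO and Hetz libraries overlapped. DESeq2 called 3 of the 7 in females, 1 higher and 2 lower, where it called 347 higher and 376 lower of 12672 genes. With no filter on low counts edgeR called 2 higher and 2 lower of 11, where it called 509 higher and 491 lower of 29014. In males edgeR called 0 of 6, with 2 at an unadjusted p under 0.05 (12.4% of all genes) and 0 called by DESeq2 or limma voom.

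Of the 20 other fibroblast growth factor genes tested (ligands, receptors and co-receptors), 1 was called in each sex by edgeR, both lower in KO, where 0.983% of all genes were called lower in females and 0.157% in males. In females the count depended on the tool and the filter. DESeq2 called 3 higher and 3 lower of the same 20, where it called 347 higher and 376 lower of 12672 genes. With no filter on low counts edgeR called 3 higher and 3 lower of 27, where it called 509 higher and 491 lower of 29014. The female call by edgeR was Fgf13, an intracellular member of the family, with 10.3 ± 1.27 CPM in KO and 19.8 ± 3.60 CPM in Hetz libraries (SD, n = 3 each; edgeR adjusted p = 0.0218; lost without female Hetz181, female KO166 or female KO188, with a largest value of 0.116). In males it was Sdc1, a heparan sulphate co-receptor, with 28.2 ± 0.665 CPM in KO and 48.4 ± 7.98 CPM in Hetz libraries (edgeR adjusted p = 0.0296; lost without male KO240 or any male Hetz library, with a largest value of 0.205). In females Sdc1 had a log2 fold change of -0.50 (edgeR adjusted p = 0.103), and in males Fgf13 had one of -0.36 (edgeR adjusted p = 0.502). Of the insulin-like growth factor list, edgeR called 1 of 14 tested genes in females (2.27% of all genes) and 1 of 13 in males (0.861% of all genes). In both sexes it was Igf2bp2, lower in KO, which encodes an RNA-binding protein that binds the Igf2 transcript. In females DESeq2 called 2 higher and 1 lower of the same 14, and edgeR with no filter on low counts 3 higher and 1 lower of 18. Igf2bp2 had 40.1 ± 2.24 CPM in female KO and 64.1 ± 2.04 CPM in female Hetz libraries, and 46.1 ± 3.87 CPM in male KO and 80.7 ± 10.96 CPM in male Hetz libraries (SD, n = 3 each). Its log2 fold change was -0.68 in females (edgeR adjusted p = 0.0154) and -0.81 in males (edgeR adjusted p = 0.0203). The female call of Igf2bp2 was lost without female Hetz164 or any female KO library (largest edgeR adjusted p = 0.102), and the male call without male Hetz204 or Hetz249 or male KO240 (largest 0.177).

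Of 35 shared signal transducers downstream of these receptors, edgeR called 0 in females and 0 in males. An unadjusted p under 0.05 was found for 9 of the 35 in females and 7 in males, against 17.9% of all genes in females and 12.4% in males. DESeq2 called 1 in females, where it called 723 of 12672 genes, and 0 in males, where it called 280 of 12323. In both sexes limma voom called 0. The smallest p was that of Hras in females, a RAS gene, with 9.45 ± 1.90 CPM in KO and 5.29 ± 0.797 CPM in Hetz libraries (edgeR adjusted p = 0.0879), and that of Foxo3 in males, a transcription factor held back by AKT, with 46.6 ± 8.99 CPM in KO and 30.6 ± 5.10 CPM in Hetz libraries (SD, n = 3 each; edgeR adjusted p = 0.168). Of 27 feedback inhibitors tested in females, edgeR called 1 higher and 1 lower in KO, where 1.29% of all genes were called higher and 0.983% lower. Dusp4, a phosphatase of MAP kinases, had 45.4, 62.4 and 51.6 CPM in KO166, KO178 and KO188, against 13.2, 16.98 and 10.8 CPM in Hetz164, Hetz165 and Hetz181. It was 3.88-fold higher (edgeR adjusted p = 0.000106), and the call held in all 12 alternatives. Spry1, a Sprouty protein required for satellite cells to return to rest, had 84.0, 133.7 and 87.9 CPM in the same KO libraries, against 215.5, 238.4 and 190.0 CPM in the same Hetz libraries. It fell by 1.08 on the log2 scale (edgeR adjusted p = 0.00736) and lost its call without female KO166 or KO188 (largest edgeR adjusted p = 0.0624). Of its exonic bases, 24.4% overlap the gene model Gm42922, so that its level is uncertain. Male Dusp4 had 21.7 ± 4.75 CPM in KO and 13.8 ± 1.93 CPM in Hetz libraries (log2 fold change 0.65, edgeR adjusted p = 0.193). Male Spry1 had 221.4 ± 13.0 CPM in KO and 287.0 ± 62.7 CPM in Hetz libraries (log2 fold change -0.37, edgeR adjusted p = 0.342). For both genes male KO and Hetz libraries did not overlap, in the direction seen in females. In males edgeR called 0 of 26 feedback inhibitors, with 8 at an unadjusted p under 0.05 (12.4% of all genes), 1 called by DESeq2 and 0 by limma voom. The smallest male p was that of Dusp5, another such phosphatase, with 66.4 ± 7.74 CPM in KO and 100.3 ± 13.7 CPM in Hetz libraries (SD, n = 3 each; edgeR adjusted p = 0.1). In females Dusp5 had 83.1 ± 4.48 CPM in KO and 63.5 ± 10.1 CPM in Hetz libraries (edgeR adjusted p = 0.195), and the female change minus the male change was 0.98 (edgeR adjusted p = 0.0898). Dusp5 shares 22.1% of its exonic bases with another gene model. For Dusp4 the female change minus the male change was 1.31 (edgeR adjusted p = 0.108).

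**Figure D4:**
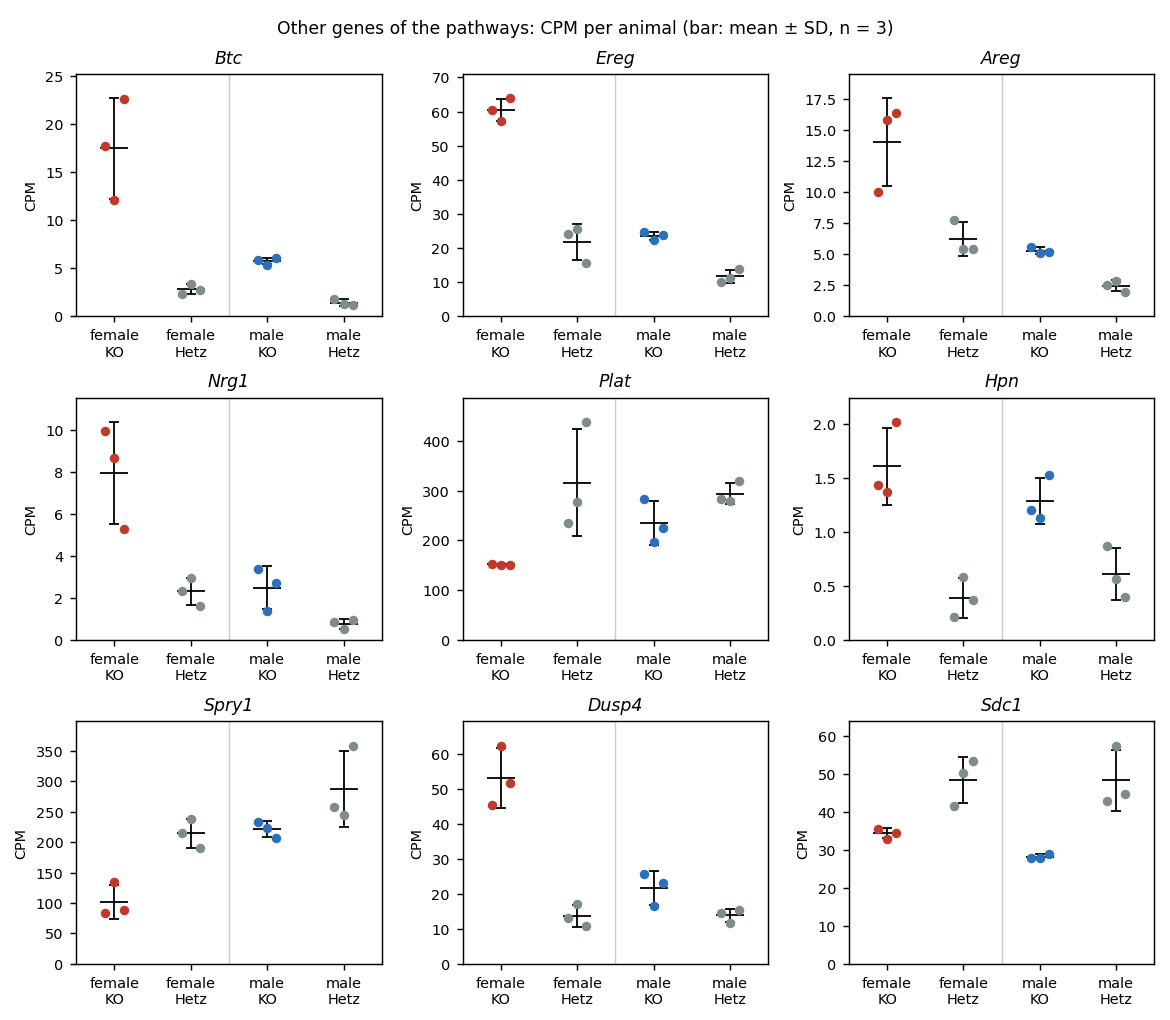
Each point is 1 library in CPM (linear axes from 0) for 9 other genes of these pathways, with bars for the mean ± SD of 3 libraries. KO and Hetz libraries stand apart in both sexes, in the same direction, for every gene but Plat, whose male groups overlap. The genes were named for their small p, which favours such separation, so the shares over all genes are not a like comparison. Named genes left out of the figure differ: Fgf13 and Hras stood apart in females only, and Foxo3 in males only. Dusp5 stood apart in opposite directions in the sexes, and Igf2bp2 was lower in KO in both. Over all genes tested, KO and Hetz values did not overlap for 22.3% in females and 17.2% in males. Dusp4 reaches 62.4 CPM in female KO libraries, and Plat in female KO libraries lies within 150.6 to 153.6 CPM.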

How the data were processed

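The deposited tables hold raw fragment counts per gene for 12 libraries. Per the file headers, the authors counted fragments over exons with featureCounts 2.0.0 on the Ensembl release 99 annotation of GRCm38, with no strand setting, and per the submitters' processing notes the reads were aligned with STAR to mm10. All deposited values are whole counts, none are estimated counts, and nothing was rounded; the deposited exonic length of each gene was used for CPM per kb. Each table was fitted on its own (edgeR 4.0.16, R 4.3.3): filterByExpr with a minimum count of 10, TMM factors, the robust quasi-likelihood test and Benjamini-Hochberg adjustment over all genes tested, at 0.05. A fit of both tables gave the change averaged over the sexes, its difference between the sexes and females against males. Alternatives were DESeq2 1.42.0, limma 3.58.1 (voom), 2 other scalings, no filter, the 12-library fit and leaving out each library. The fit of each table was tested on simulated counts with the same dispersion for every gene, and the fit of both tables was not tested in that way. All pairs of replicates differed beyond counting error (chi-square over its degrees of freedom, 13.9 to 74.0). Symbols matched 55144 of the 55385 gene IDs; Spry3 was not matched. All 9 genes were always named, with Keap1 and Nqo1; from each pathway list up to 4 genes with the smallest p among those called within a sex were named, or the 1 with the smallest p. The 9 genes and all lists were chosen with earlier results of these data known.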

Additional observations from a re-analysis of the deposited data

How the results depend on the processing

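No paired analysis was possible because the libraries of the groups compared share no replicate numbers. Over the 9 genes, 5 comparisons and all alternatives, 626 of 675 values kept their direction and their side of the threshold, 16 lost a call, 19 gained one and 14 changed sign. None of those that changed sign had an adjusted p under 0.05. For the other named genes 336 of 384 kept both, 32 lost a call, 12 gained one and 4 changed sign. Of the counts of list genes called, 101 stayed within 1.5 times the count given and 43 did not. The other scalings (DESeq2's size factors and upper-quartile factors) moved no count of genes by over 1.5 times.

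DESeq2 called 723 of 12672 genes in females and 280 of 12323 in males. It called 843 of 13624 with the sexes averaged and 238 of 7612 in the difference between the sexes. In these 4 comparisons the main edgeR fits called 319, 115, 504 and 1. With no filter on low counts edgeR called 1000 of 29014, 375 of 28225, 858 of 31671 and 358 of 31671 genes. Of the 9 genes, DESeq2 called 2 in females and 2 with the sexes averaged, and no filter gave 3 and 2. The fit of all 12 libraries gave 1 in females and 0 in males, where it called 477 and 93 of 14772 genes. With 1 library left out, the counts ran from 144 to 1479 genes in females (1479 without Hetz165), 41 to 294 in males, 318 to 931 with the sexes averaged, and 0 to 206 in the difference between the sexes. Of the 9 genes such fits called 0 to 2 in females, 0 to 1 in males, 0 to 2 with the sexes averaged and 1 to 3 in females against males; the cause was not tested.

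The values that changed sign did so only where 1 library was left out, and their log2 ranges over those fits follow. In females, Egfr ran from -0.0007 to 0.2098 and Fgfr1 from -0.3115 to 0.1101. In males, Fgf2 ran from -0.1746 to 0.1949, Hbegf from -0.3198 to 0.0275, Igf1 from -0.123 to 0.9857, Hras from -0.2695 to 0.1608 and Keap1 from -0.3037 to 0.1193. With the sexes averaged, Igf1 ran from -0.4484 to 0.0965, and in females against males Met ran from -0.0777 to 0.0351. In the difference between the sexes, Egfr ran from -0.2797 to 0.0245, Igf1r from -0.0759 to 0.1249 and Met from -0.0291 to 0.1938. At the levels of Hgf and Igf2, below 5 CPM in each library, counting error limits what 3 libraries a group can show.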
